A study of Mus musculus with 9 samples.

Results

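Oligodendrocyte lineage and myelin genes were followed in RNA from dissected midbrain of mice in which Dot1l was left intact or was floxed on 1 or on both alleles. The group holds 30 genes that were chosen by symbol and matched through Ensembl identifiers, out of 47729 identifiers in each count table. Each of the 30 matched 1 identifier and each passed the filter on low counts. By role the genes were 2 markers of precursor cells (Pdgfra, Cspg4), 3 of newly formed oligodendrocytes (Gpr17, Enpp6, Bcas1), 6 transcription factors of the lineage and 19 genes of mature, myelinating oligodendrocytes.

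DOT1L is the methyltransferase that places methyl groups on lysine 79 of histone H3. All mice were on a C57/Bl6 background, were 180 days old, and carried Pitx3-Cre on 1 allele together with Rosa-lox-stop-lox-Yfp, a reporter that is switched on by Cre. They differed in Dot1l, which was Dot1l(+/+), Dot1l(fl/+) or Dot1l(fl/fl). Each genotype was sequenced in 3 libraries, and tissue of 3 mice was pooled for each of them, so that the p-values below measure the spread between pools. In the brain, Pitx3 is expressed in midbrain dopaminergic neurons, and recombination in other cell types was not measured here. The design text of the series describes sorted YFP+ cells of an embryonic stage, whereas the label of every library gives dissected adult midbrain. The labels name dopamine neurons as the tissue, but markers of other cell types were abundant in every library, with summed levels of 4364 to 4951 CPM (counts scaled to a common library size) for 9 astrocyte genes against 284 to 462 CPM for 8 dopaminergic genes.

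Oligodendrocytes arise from proliferating precursor cells that carry PDGFRA and the proteoglycan NG2 (the product of Cspg4). They pass through a short premyelinating stage marked by Gpr17, Enpp6 and Bcas1. Olig1, Olig2, Sox10 and the Nkx factors direct the lineage, and Myrf switches on the genes of myelin, the lipid-rich sheath that insulates axons. The midbrain of an adult mouse is crossed by myelinated tracts, and most of its oligodendrocytes are mature cells.

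The libraries held 16422135 to 28403218 counts, of which the 30 genes took 0.862 to 1.00%. In a single library a member had between 119 and 128208 counts. The Dot1l gene itself had 85.2, 80.2 and 85.1 CPM in Dot1l(+/+), 84.2, 60.6 and 75.6 CPM in Dot1l(fl/+), and 82.1, 73.9 and 82.9 CPM in Dot1l(fl/fl). These ranges overlapped, and counts over the whole gene also hold the exons that were not floxed and the RNA of cells without Cre, so they do not check the genotype. Replicates 2 and 3 of Dot1l(fl/+) stood apart from the other libraries: they were the highest of the 9 libraries in 16.9% and 14.9% of all genes tested and the lowest in 17.5% and 16.8%. Replicate 3 also had 573 CPM of 5 choroid plexus markers, led by Ttr (transthyretin, 505 CPM), against 31.1 to 169 CPM in the other 8 libraries. Counts and medians of members below are therefore also given without these libraries where they moved most.

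Cnp, Cldn11 and Mog are 3 of the 5 members with an unadjusted p under 0.05 for Dot1l(fl/+) against Dot1l(+/+), and the reference sequence before their start sites is shown for that reason (RefSeq, GRCm38.p6). Cnp encodes a phosphodiesterase of non-compact myelin, Cldn11 the claudin of myelin tight junctions, and Mog a glycoprotein of the outermost myelin surface. Promoter windows were at hand for 22 of the 30 genes. Capitals mark letters that were searched on both strands: ACAAAG and ACAATG (cores bound by SOX factors), CTGGCAC and CTGGTAC (letters of the MYRF motif) and CAGCTG (an E-box as bound by OLIG proteins). None of these motifs overlapped another in the stretches shown. Each stretch reads 5′ to 3′ on the strand of its gene and ends before the first transcribed base.
Cnp, chr11:100574689-100574903, plus strand: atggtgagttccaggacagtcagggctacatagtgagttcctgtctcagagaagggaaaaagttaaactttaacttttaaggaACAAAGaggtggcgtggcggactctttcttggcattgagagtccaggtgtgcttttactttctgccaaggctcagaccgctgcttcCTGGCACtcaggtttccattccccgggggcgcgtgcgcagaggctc
Cldn11, chr3:31149670-31149919, plus strand: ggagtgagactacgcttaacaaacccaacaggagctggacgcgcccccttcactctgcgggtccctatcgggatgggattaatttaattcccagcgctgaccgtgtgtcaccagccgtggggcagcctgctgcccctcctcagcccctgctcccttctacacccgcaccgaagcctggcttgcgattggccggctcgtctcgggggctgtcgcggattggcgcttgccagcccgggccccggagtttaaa
Mog, chr17:37023399-37023648, minus strand: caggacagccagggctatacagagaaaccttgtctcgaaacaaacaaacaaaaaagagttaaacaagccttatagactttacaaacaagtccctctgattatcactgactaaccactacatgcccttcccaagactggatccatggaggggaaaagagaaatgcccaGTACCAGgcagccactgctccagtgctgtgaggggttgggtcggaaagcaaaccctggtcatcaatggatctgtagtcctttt
The Cnp stretch held ACAAAG and CTGGCAC once each, the Mog stretch held CTGGTAC once as its reverse complement, and the Cldn11 stretch held no letters of the 5 motifs. Over the 30 windows of 250 bases of the 22 genes, 8 windows of 6 genes held ACAAAG (26.7%, against 16.5% of all 32851 windows of that length). The share with ACAATG was 16.7% against 10.7%, with CTGGCAC 13.3% against 4.19%, with CTGGTAC 3.33% against 1.83% and with CAGCTG 13.3% against 13.0%. Several genes had more than 1 window and some of these windows overlap, so the shares are a description of letters and not of binding.

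In Dot1l(+/+), genes of mature cells led the order of the levels. Per kilobase of exon, Mbp (myelin basic protein, the major protein of compact myelin) stood first with 480 ± 30.4 CPM per kb (SD, n = 3), before Mobp (a second basic protein of the sheath) with 248 ± 14.9 and Cnp with 134 ± 7.52 CPM per kb. Mal, a proteolipid of myelin membranes, followed with 122 ± 3.07 CPM per kb and Mag, the adhesion protein on the axonal side of the sheath, with 86.6 ± 4.49 CPM per kb. The libraries of each of these first 5 genes lay above those of the next gene. Olig1 (75.3 ± 1.74 CPM per kb) was the highest transcription factor, and its libraries lay above those of Bcas1 (68.7 ± 6.38 CPM per kb), whose range overlapped that of Cldn11 (64.6 ± 2.62 CPM per kb). The lowest levels were those of Nkx2-2 (2.66 ± 0.10 CPM per kb), Cspg4 (2.09 ± 0.037 CPM per kb) and Enpp6 (1.86 ± 0.26 CPM per kb), and the last 2 overlapped. Pdgfra had 7.43 ± 0.088 CPM per kb. The level of Trf, the iron carrier transferrin, is uncertain because a read-through gene with no counts of its own covers 2108 of its 3320 exon bases.

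**Figure D1:**
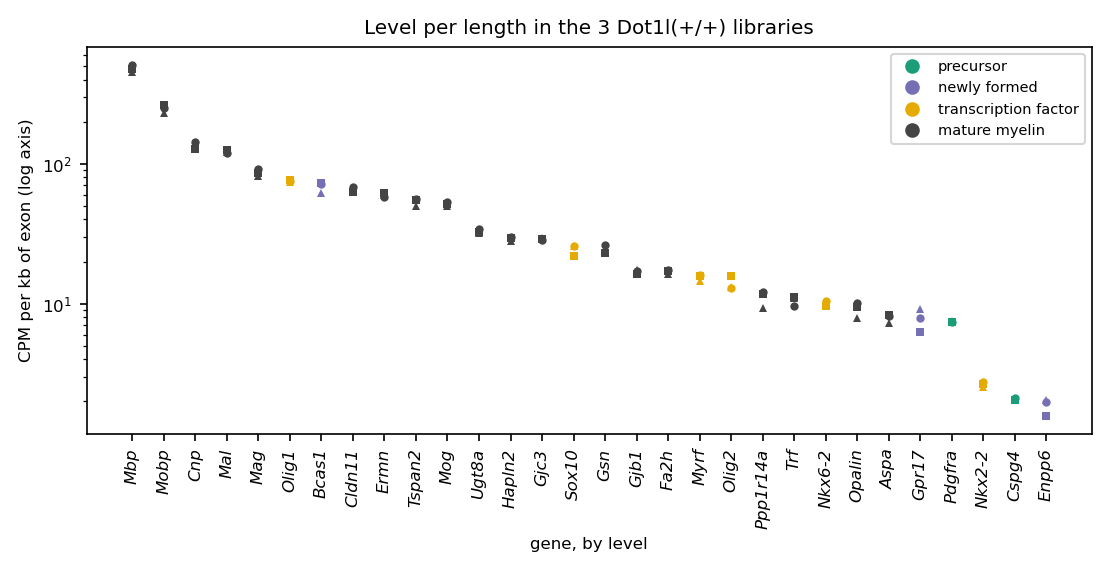
Level of the 30 genes per kilobase of exon in the 3 Dot1l(+/+) libraries (CPM per kb, log axis), ordered by mean, with 1 point per library and colours for the role of the gene. Mbp at 480 CPM per kb and Mobp at 248 CPM per kb stand above all others, and Cspg4 and Enpp6 close the order at 2.09 and 1.86 CPM per kb.

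None of the 30 genes passed an adjusted p of 0.05 in any of the 3 comparisons (edgeR quasi-likelihood test in 1 fit of the 9 libraries, adjusted over 17671 genes). The share of all genes tested that passed was 0% in each comparison, and DESeq2 on the same libraries called no member either (2 genes higher and 1 lower, 3 lower, and 5 higher and 9 lower over all genes, in the order of comparisons that follows). DESeq2 on the 2 genotypes compared called no member as well, with 43 genes higher and 2 lower, 1 higher and 7 lower, and 3 higher and 10 lower, and its lowest adjusted p of a member was 0.0589 for Cldn11 in the first comparison. By edgeR the lowest adjusted p of a member was 0.541 for Dot1l(fl/+) against Dot1l(+/+), 0.999 for Dot1l(fl/fl) against Dot1l(+/+) and 0.641 for Dot1l(fl/fl) against Dot1l(fl/+). Log2 fold changes of single members lay between -0.28 and 0.27, and their 95% confidence intervals between -0.51 and 0.50. Differences beyond those bounds were thus outside the interval of every member, while differences within a member's interval were not resolved with 3 pools per genotype. Counts at an unadjusted p of 0.05 are given below as a description. In bulk tissue, fewer cells of a type and less RNA per cell cannot be told apart. The Dot1l(fl/+) libraries enter 2 of the comparisons and so do the Dot1l(+/+) libraries, so opposite signs in 2 comparisons are not independent.

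**Figure D2:**
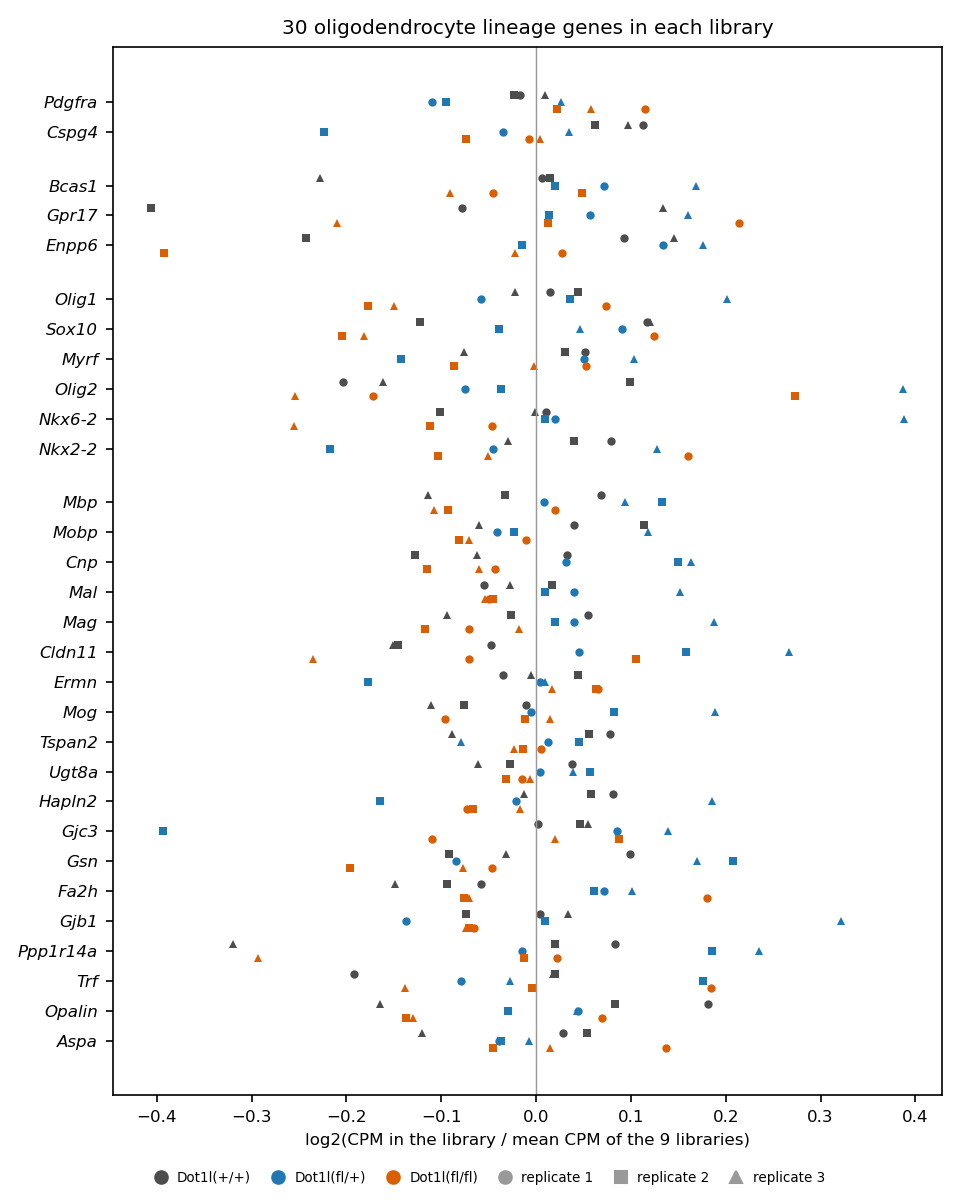
Each gene in each library as the log2 ratio of its CPM to its mean over the 9 libraries, with colours for genotype and symbols for replicate number; genes are grouped as precursor, newly formed, transcription factor and mature myelin. Most points lie within 0.2 of the mean, and the triangle of Dot1l(fl/+) replicate 3 is the highest of the 9 libraries in 16 of 30 genes.

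The precursor markers had their lowest mean in Dot1l(fl/+). Pdgfra, the receptor through which platelet-derived growth factor drives precursor division (chr5:75152292-75198215, plus strand), had 74.2, 73.9 and 75.5 CPM in Dot1l(+/+), 69.5, 70.3 and 76.4 CPM in Dot1l(fl/+) and 81.3, 76.2 and 78.1 CPM in Dot1l(fl/fl). All Dot1l(fl/fl) libraries lay above all controls, which 5.03% of all genes tested also did, and 1 of them lay below the highest Dot1l(fl/+) library. The log2 fold change of Pdgfra was 0.076 (SE 0.053) for Dot1l(fl/fl) against Dot1l(+/+) and 0.12 (SE 0.053) for Dot1l(fl/fl) against Dot1l(fl/+), the latter with an unadjusted p of 0.0364 and an adjusted p of 0.745. Fibroblasts of the meninges can also express this receptor, and the summed level of 6 meningeal fibroblast markers was 153 to 212 CPM in Dot1l(+/+), 135 to 189 CPM in Dot1l(fl/+) and 158 to 204 CPM in Dot1l(fl/fl); their part in the result was not tested.

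Cspg4 had 25.3, 24.4 and 24.98 CPM in Dot1l(+/+), 22.8, 20.0 and 23.9 CPM in Dot1l(fl/+) and 23.2, 22.2 and 23.4 CPM in Dot1l(fl/fl). Both floxed genotypes lay below all 3 controls. Relative to Dot1l(+/+), the log2 fold change of Cspg4 was -0.16 (SE 0.080, adjusted p = 0.611) in Dot1l(fl/+) and -0.12 (SE 0.081, adjusted p = 0.999) in Dot1l(fl/fl). Cspg4 also marks pericytes, whose 6 mural markers had summed levels of 283 to 324 CPM in Dot1l(+/+), 257 to 306 CPM in Dot1l(fl/+) and 287 to 328 CPM in Dot1l(fl/fl), and their part was not tested. Both precursor genes together amounted to 1.21 ± 0.067% of the summed mature genes in Dot1l(+/+), to 1.09 ± 0.047% of that sum in Dot1l(fl/+) and to 1.26 ± 0.023% of it in Dot1l(fl/fl) (SD, n = 3). The 3 Dot1l(fl/+) values of this ratio lay below those of both other genotypes. Pdgfra made up 76.3% of the precursor sum. In Dot1l(fl/+) replicate 3 that sum was 100.32 CPM, within the 98.2 to 100.5 CPM of the controls, while the mature sum was the highest of all libraries.

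All 3 newly formed markers had a positive log2 fold change for Dot1l(fl/+) against Dot1l(+/+), with a median of 0.15 (48.9% of all genes tested were positive). They did not share one order of all genotypes. Bcas1, a protein of early myelinating cells, had 272, 274 and 231 CPM in Dot1l(+/+), 285, 275 and 305 CPM in Dot1l(fl/+) and 263, 280.2 and 254 CPM in Dot1l(fl/fl). Its Dot1l(fl/+) libraries lay above all controls, though only just for replicate 2, with a log2 fold change of 0.15 (SE 0.069, unadjusted p = 0.0443, adjusted p = 0.583). This was 0.080 (unadjusted p = 0.231) without Dot1l(+/+) replicate 3 and 0.11 (unadjusted p = 0.162) without Dot1l(fl/+) replicate 3. Gpr17, a receptor that holds cells in the premyelinating state, was spread widely in Dot1l(+/+) and Dot1l(fl/fl) and less so in Dot1l(fl/+), with 41.1, 32.8 and 47.6 CPM in Dot1l(+/+), 45.2, 43.8 and 48.5 CPM in Dot1l(fl/+), and 50.4, 43.8 and 37.5 CPM in Dot1l(fl/fl). Enpp6, a choline phosphodiesterase of newly formed cells, had 10.05 to 13.2 CPM in Dot1l(+/+), 11.8 to 13.4 CPM in Dot1l(fl/+) and 9.05 to 12.1 CPM in Dot1l(fl/fl). The genotypes overlapped for both, with adjusted p-values of at least 0.721 in all 3 comparisons. Enpp6 was nevertheless lower in each Dot1l(fl/fl) library than in the Dot1l(fl/+) library of the same number, with a log2 fold change of -0.22 (unadjusted p = 0.121). With the replicate number as a block it was -0.23 (unadjusted p = 0.0371, adjusted p = 0.698), and with the length and GC offset as well -0.29 (unadjusted p = 0.0103, adjusted p = 0.708). As a percentage of the summed mature genes the newly formed genes were 3.78 ± 0.043, 4.00 ± 0.19 and 4.00 ± 0.20 (SD, n = 3). Bcas1 made up 83.1% of the newly formed sum, so this ratio mostly follows Bcas1.

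Among the transcription factors, Myrf had nearly equal means of 132 ± 6.16, 132 ± 11.6 and 131 ± 6.29 CPM (SD, n = 3) in Dot1l(+/+), Dot1l(fl/+) and Dot1l(fl/fl). Olig1 had 159 to 166 CPM in Dot1l(+/+), 155 to 186 CPM in Dot1l(fl/+) and 143 to 169.9 CPM in Dot1l(fl/fl). Sox10, which with MYRF drives the myelin genes, had 79.0, 66.9 and 79.2 CPM in Dot1l(+/+), 77.6, 70.9 and 75.2 CPM in Dot1l(fl/+) and 79.4, 63.2 and 64.2 CPM in Dot1l(fl/fl). For Olig1 and Sox10, 2 of the 3 Dot1l(fl/fl) libraries were the lowest of the 9, while replicate 1 was among the highest. Without that replicate, the log2 fold change of Dot1l(fl/fl) against Dot1l(+/+) was -0.23 for Sox10 (unadjusted p = 0.0116) and -0.17 for Olig1 (unadjusted p = 0.0315), both with an adjusted p of 0.9997.

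Nkx6-2, a homeodomain factor of myelinating cells, had 19.8, 18.3 and 19.6 CPM in Dot1l(+/+), 19.9, 19.8 and 25.7 CPM in Dot1l(fl/+) and 18.99, 18.1 and 16.4 CPM in Dot1l(fl/fl). Its Dot1l(fl/fl) libraries lay below all Dot1l(fl/+) libraries, with a log2 fold change of -0.28 (SE 0.11, unadjusted p = 0.0209, adjusted p = 0.726), and this was -0.15 (unadjusted p = 0.149) without Dot1l(fl/+) replicate 3. Inpp5a overlaps Nkx6-2 by 246 of 1907 exon bases on the other strand. It had 14705 counts over all libraries against 4311 for Nkx6-2, and whether strand was used in counting is not known, so these levels are uncertain. Olig2, required for the specification of the lineage, ranged from 31.4 to 49.0 CPM with its extremes in Dot1l(fl/fl) replicate 3 and Dot1l(fl/+) replicate 3. Nkx2-2, which acts as cells begin to differentiate, ranged from 6.43 to 8.36 CPM. The genotypes overlapped for Olig2 and Nkx2-2.

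For the mature genes, the comparison of Dot1l(fl/+) with Dot1l(+/+) gave 12 of 19 positive log2 fold changes with a median of 0.089, and over all 30 members 19 were positive with a median of 0.082. Among all genes tested 48.9% were positive, with a median of -0.0034. Without Dot1l(fl/+) replicate 3 the medians were 0.048 for the mature genes and 0.035 for all members, of which 17 were positive, whereas 25 members were positive without Dot1l(fl/+) replicate 2 (median 0.075). At an unadjusted p of 0.05, 5 members were higher in Dot1l(fl/+) and none lower, where 4.30% of all genes tested were higher and 4.09% lower. These were Cldn11, Cnp, Mog and Fa2h among the mature genes and Bcas1. Libraries of 4 members lay wholly above the controls and those of 1 member, Cspg4, wholly below (6.84% and 6.47% of all genes tested).

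Cldn11 (chr3:31149920-31164324, plus strand) had 126, 118 and 118 CPM in Dot1l(+/+), 135, 146 and 157 CPM in Dot1l(fl/+), and 124, 141 and 111 CPM in Dot1l(fl/fl). All Dot1l(fl/+) libraries lay above the controls, and the Dot1l(fl/fl) libraries overlapped both other genotypes. The log2 fold change was 0.27 (95% interval 0.10 to 0.44, unadjusted p = 0.00385, adjusted p = 0.541) for Dot1l(fl/+) against Dot1l(+/+) and -0.22 (-0.39 to -0.05, unadjusted p = 0.0154, adjusted p = 0.726) for Dot1l(fl/fl) against Dot1l(fl/+). The second was -0.14 (unadjusted p = 0.0837) without Dot1l(fl/fl) replicate 3 and -0.16 (unadjusted p = 0.0740) without Dot1l(fl/+) replicate 3. Without a filter on low counts, which raised the tested genes to 28316, the first comparison had an adjusted p of 0.00121 and the second of 0.0407. That fit called 192 genes higher and 59 lower in the first comparison, and 74 higher and 90 lower in the second. Over all alternatives run, the adjusted p of Cldn11 ranged from 0.00121 to 0.867 and from 0.0407 to 0.9997, and the fit without the filter was the only one to bring it under 0.05.

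Cnp (chr11:100574904-100591729, plus strand) had 517, 463 and 484 CPM in Dot1l(+/+), 517, 561 and 566 CPM in Dot1l(fl/+), and 491, 467 and 485 CPM in Dot1l(fl/fl). Its Dot1l(fl/+) libraries lay above those of Dot1l(fl/fl) and, for replicate 1, level with the highest control. The log2 fold change was 0.17 (SE 0.057, unadjusted p = 0.0117, adjusted p = 0.541) for Dot1l(fl/+) against Dot1l(+/+), -0.022 (SE 0.057, adjusted p = 0.999) for Dot1l(fl/fl) against Dot1l(+/+), and -0.19 (SE 0.057, unadjusted p = 0.00563, adjusted p = 0.641) for Dot1l(fl/fl) against Dot1l(fl/+). Dnajc7 overlaps Cnp by 154 of 3639 exon bases on the other strand, and Lims2 likewise overlaps Gpr17 by 188 of 5195. The library kit keeps strand, but whether strand was used in counting is not given in the sources used here.

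Mog had 91.5, 87.4 and 85.3 CPM in Dot1l(+/+), 91.8, 97.5 and 105 CPM in Dot1l(fl/+) and 86.2, 91.3 and 93.0 CPM in Dot1l(fl/fl). For Mog, Dot1l(fl/+) against Dot1l(+/+) gave a log2 fold change of 0.16 (SE 0.058, unadjusted p = 0.0184, adjusted p = 0.541), and 0.079 (unadjusted p = 0.163) when an offset corrected each library for exon length and GC content. With that offset Bcas1 (unadjusted p = 0.0651) and Fa2h (unadjusted p = 0.0530) also left the 5, so that Cldn11 and Cnp stayed, and Ugt8a (higher) and Cspg4 (lower) came in, while 642 of all 17612 genes were higher and 558 lower. Fa2h, the hydroxylase of myelin sphingolipids, had 52.6, 51.3 and 49.4 CPM in Dot1l(+/+), 57.5, 57.1 and 58.7 CPM in Dot1l(fl/+) and 62.0, 51.9 and 52.1 CPM in Dot1l(fl/fl). Both genes lay above all controls in the 3 Dot1l(fl/+) libraries, Mog by a narrow margin in replicate 1. Mbp, at 4332, 4038 and 3819 CPM in Dot1l(+/+), 4156, 4529.7 and 4409.6 CPM in Dot1l(fl/+) and 4189, 3874 and 3835 CPM in Dot1l(fl/fl), overlapped between genotypes.

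**Figure D3:**
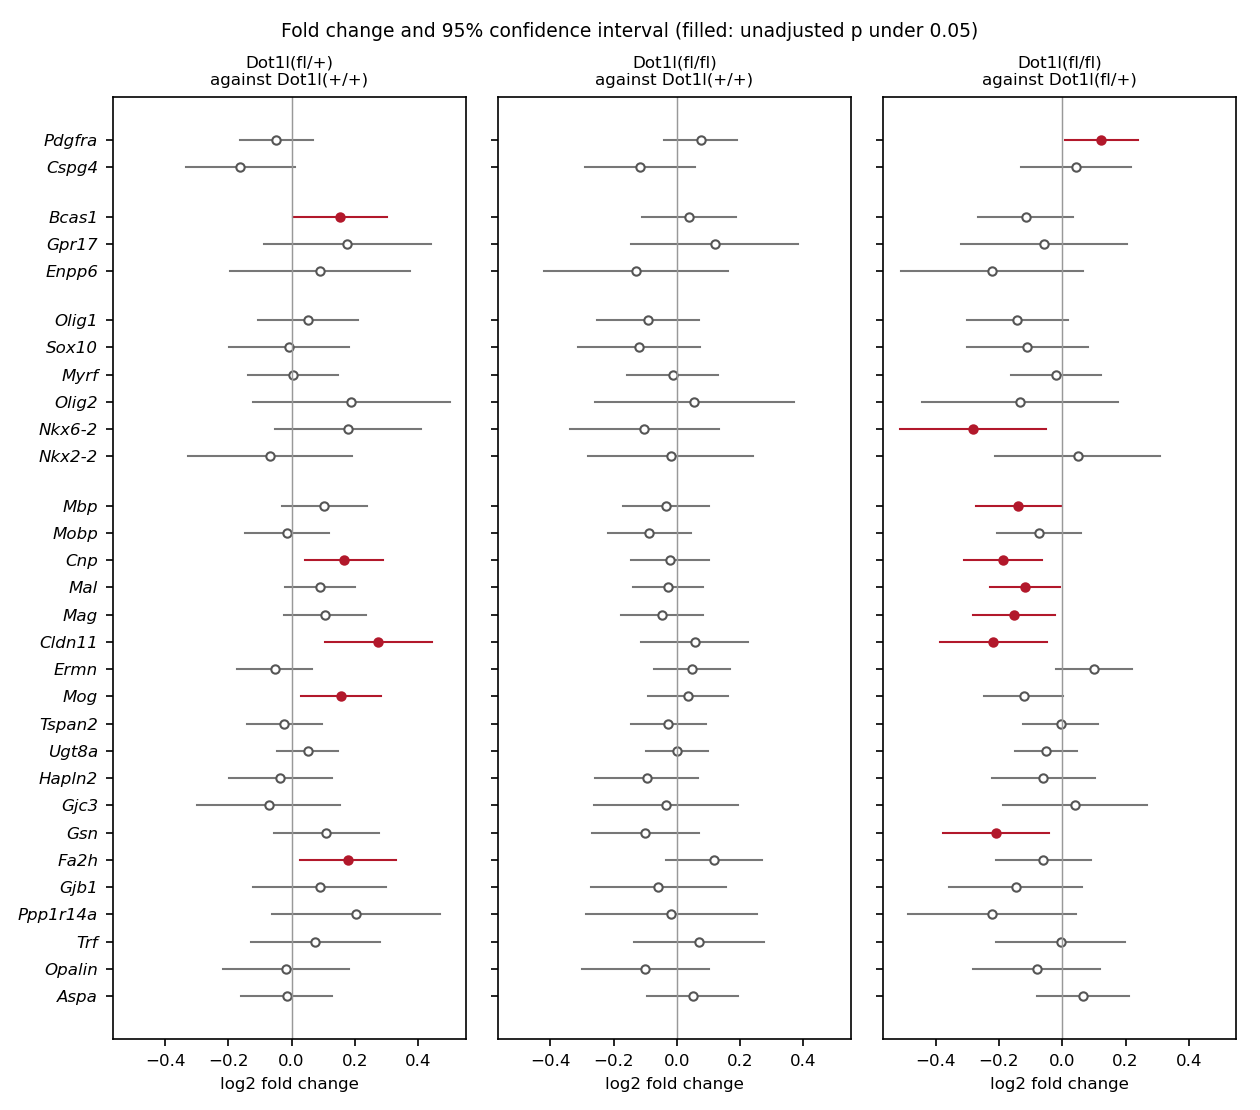
Log2 fold change of each gene with its 95% confidence interval in the 3 comparisons (edgeR), where filled red points have an unadjusted p under 0.05 and open points do not. There are 5 filled points in the left panel, none in the middle and 8 on the right, where 7 lie below 0 and Pdgfra lies above; none of the 30 passed after adjustment.

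Dot1l(fl/fl) against Dot1l(+/+) left the members near 0. There were 10 positive and 20 negative log2 fold changes, with a median of -0.024, and the mature genes had 6 positive and 13 negative with a median of -0.027. Without Dot1l(+/+) replicate 1 this turned to 17 positive and 13 negative, with a median of 0.0043 over the members and 0.0049 over the mature genes. With each library left out in turn the median over the members ran from -0.045 to 0.0043. No member had an unadjusted p under 0.05 in this edgeR fit or in either DESeq2 fit, where 2.21% of all genes tested were higher and 1.72% lower by edgeR. Pdgfra lay wholly above the controls, and Cspg4 and Hapln2 (a link protein of the nodes of Ranvier) lay wholly below, against shares of 5.03% and 5.25% of all genes tested. Hapln2 had 70.9, 69.7 and 66.4 CPM in Dot1l(+/+) and 63.7, 64.0 and 66.2 CPM in Dot1l(fl/fl), while the Dot1l(fl/+) libraries at 66.0, 59.8 and 76.2 CPM covered both, and its adjusted p was 0.999. The 95% intervals of the mature genes lay within -0.30 and 0.28 on the log2 scale.

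Dot1l(fl/fl) against Dot1l(fl/+) gave 6 positive and 24 negative log2 fold changes among the members, with a median of -0.096, against 50.5% positive and a median of 0.0015 over all genes tested. Without Dot1l(fl/+) replicate 3 there were 9 positive and 21 negative with a median of -0.048, and without Dot1l(fl/+) replicate 2 there were 5 and 25 with a median of -0.12, while the median was -0.059 without Dot1l(fl/fl) replicate 2. The mature genes had a median of -0.080, and of -0.048 without Dot1l(fl/+) replicate 3. At an unadjusted p of 0.05, 7 members were lower in Dot1l(fl/fl) and 1, Pdgfra, was higher, where 2.87% of all genes tested were lower and 3.60% higher. The 7 were Cldn11, Cnp, Mag, Mal, Mbp, Nkx6-2 and Gsn. With the offset for length and GC content, Mal (unadjusted p = 0.0509), Pdgfra (0.0571) and Nkx6-2 (0.0643, log2 fold change -0.18) were no longer under 0.05 and Ugt8a was, which left 6 lower and none higher, while 504 of all 17612 genes were lower and 552 higher. Libraries of 5 members lay wholly below (Cnp, Mag, Mal, Ugt8a and Nkx6-2) and those of 1, Ermn, wholly above, against 5.14% and 5.98% of all genes tested.

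Mag had 368, 363 and 408 CPM in Dot1l(fl/+) and 341, 329.9 and 353 CPM in Dot1l(fl/fl), while the controls at 372, 351 and 335 CPM overlapped both. Mal had 354, 347 and 383 CPM in Dot1l(fl/+) and 333, 334 and 332 CPM in Dot1l(fl/fl), with controls at 331, 348 and 338 CPM. Both genes thus separated the floxed genotypes from each other but not from the controls. Without Dot1l(fl/+) replicate 3 the log2 fold change between the floxed genotypes was -0.098 for Mag (unadjusted p = 0.128) and -0.074 for Mal (unadjusted p = 0.181), against -0.15 and -0.12 with all libraries. Gsn, the actin-severing protein gelsolin, had 82.5, 72.3 and 75.3 CPM in Dot1l(+/+), 72.6, 88.9 and 86.6 CPM in Dot1l(fl/+) and 74.5, 67.2 and 73.0 CPM in Dot1l(fl/fl), and its log2 fold change for Dot1l(fl/fl) against Dot1l(fl/+) was -0.21 (SE 0.078, adjusted p = 0.726). Ermn (ermin, a cytoskeletal protein of the sheath) ran the other way, with 217, 192 and 218 CPM in Dot1l(fl/+) and 227, 226 and 219 CPM in Dot1l(fl/fl), and an unadjusted p of 0.0908. Ugt8a, the enzyme that makes galactosylceramide, was the steadiest member, with 145 to 157 CPM over the 9 libraries.

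The remaining mature genes overlapped in all 3 comparisons. These were Mobp, Opalin (a membrane protein of the sheath), Aspa (aspartoacylase, which frees acetate from N-acetylaspartate), Trf, Tspan2 (a tetraspanin), Ppp1r14a (an inhibitor of myosin phosphatase) and the connexins Gjb1 and Gjc3. Opalin ranged from 23.3 to 29.7 CPM, Aspa from 43.5 to 52.0 CPM and Tspan2 from 236 to 265 CPM. Mobp ranged from 1567 to 1799 CPM, Trf from 31.7 to 41.2 CPM and Ppp1r14a from 12.6 to 18.5 CPM. Gjc3 had 93.7 CPM in Dot1l(fl/+) replicate 2 and 114 to 136 CPM in the other libraries, and Gjb1 had 36.6 CPM in Dot1l(fl/+) replicate 3 and 26.6 to 29.9 CPM elsewhere. In both, a single library thus lay far from the rest.

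Replicate 3 of Dot1l(fl/+) and replicate 3 of Dot1l(+/+) both weighed on the pattern of higher values in Dot1l(fl/+). The mean of Dot1l(fl/+) was the highest of the 3 genotypes in 19 of 30 members, against 35.5% of all genes tested, and that of Dot1l(fl/fl) the lowest in 17, against 30.2%. Replicate 3 of Dot1l(fl/+) was the highest of all 9 libraries in 16 members and the lowest in none, and replicate 3 of Dot1l(+/+) was the lowest in 9, of which 8 were mature genes, and in 12.01% of all genes tested. Without Dot1l(fl/+) replicate 3, the members under an unadjusted p of 0.05 were Cldn11 and Cnp (higher) and Cspg4 (lower) for Dot1l(fl/+) against Dot1l(+/+), and Cnp (lower), Pdgfra and Ermn (higher) for Dot1l(fl/fl) against Dot1l(fl/+). Of all 17883 genes tested in that fit, 519 were higher and 492 lower in the first of these comparisons, and 535 higher and 341 lower in the second. Without Dot1l(+/+) replicate 3 the first comparison held Cldn11, Cnp and Gpr17, all higher in Dot1l(fl/+), while 545 of all 17897 genes were higher and 431 lower. Without Dot1l(fl/+) replicate 2 it held 8 members, all higher, while 843 of all 17891 genes tested were higher and 975 lower. In the same fit the comparison of Dot1l(fl/fl) with Dot1l(fl/+) held 5, all lower, while 990 of all genes were higher and 762 lower. Without Dot1l(fl/fl) replicate 2 that comparison likewise held 5, 4 of them lower (552 of 17903 genes lower and 441 higher), and without Dot1l(fl/fl) replicate 3 it held 3, all lower (432 of 17898 genes lower and 514 higher).

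Summed over the 19 mature genes, the levels were 8591, 8311 and 7831 CPM in Dot1l(+/+), 8332, 8742 and 8959.8 CPM in Dot1l(fl/+) and 8316, 7890.1 and 7865 CPM in Dot1l(fl/fl), of which Mbp made up 49.7%. These sums overlapped between Dot1l(+/+) and both other genotypes, and the lowest Dot1l(fl/+) library was above the highest Dot1l(fl/fl) library by a small margin. The choroid plexus markers were highest in Dot1l(fl/+) replicate 3, which also had the highest mature sum. They had the order of the mature sums within Dot1l(fl/+) but not within Dot1l(+/+) or Dot1l(fl/fl). Their sums were 58.2 to 145 CPM in Dot1l(+/+), 105 to 573 CPM in Dot1l(fl/+) and 31.1 to 38.7 CPM in Dot1l(fl/fl). All 5 were detected in every library. The dopaminergic markers had 409 to 462 CPM in Dot1l(+/+), 303 to 407 CPM in Dot1l(fl/+), with the lowest in replicate 3, and 284 to 302 CPM in Dot1l(fl/fl). The summed level of the 9 astrocyte markers overlapped between all genotypes, although 2 of the 9 lay wholly above the controls in Dot1l(fl/+) and 3 lay wholly below Dot1l(fl/+) in Dot1l(fl/fl) (6.84% and 5.14% of all genes tested). The 8 microglial markers summed to 238 to 253 CPM in Dot1l(+/+), 236 to 279 CPM in Dot1l(fl/+) and 264 to 287 CPM in Dot1l(fl/fl), so that Dot1l(fl/fl) lay wholly above the controls. Singly 5 of the 8 did so, and 3 (Aif1, Csf1r and Trem2) had an unadjusted p under 0.05 and an adjusted p of 0.999, where 5.03% of all genes tested lay wholly above and 2.21% were higher at that p. The part of these differences in the values of the members was not tested. Among genes of Schwann cells, the myelinating cells of nerves outside the brain, Pmp2 had no count in any library, which allows up to 3 counts per library, and Prx and Egr2 stayed at or below 1.66 CPM, so these 3 markers were at or near 0.

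**Figure D4:**
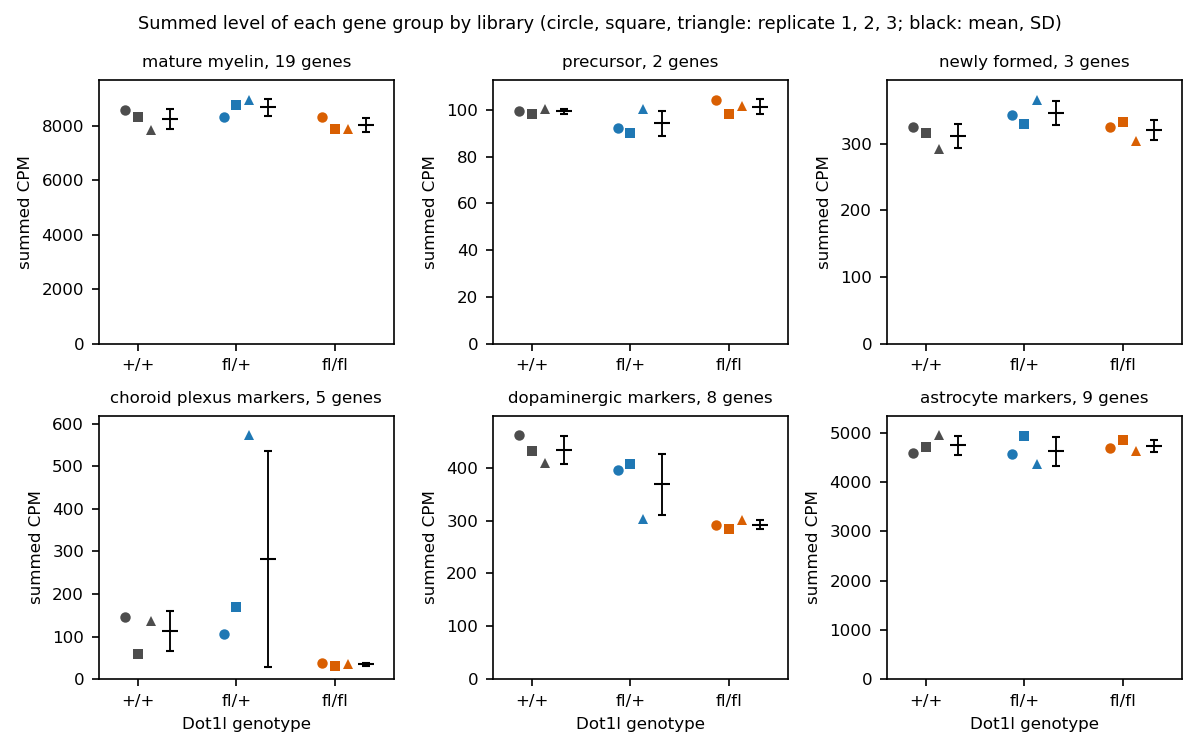
Summed CPM of 3 member groups and 3 marker groups in each library by Dot1l genotype, with symbols for replicates 1 to 3 and the mean with SD in black; every axis starts at 0. The mature sums of all 9 libraries lie between 7831 and 8959.8 CPM, while the choroid plexus markers reach 573 CPM in Dot1l(fl/+) replicate 3 and stay at 31.1 to 38.7 CPM in Dot1l(fl/fl).

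Further genes of the lineage were listed by stage. Of 34 other mature genes, 27 had a positive and 7 a negative log2 fold change for Dot1l(fl/+) against Dot1l(+/+) (median 0.080), with 5 higher and none lower at an unadjusted p of 0.05 (4.30% and 4.09% of all genes tested). For Dot1l(fl/fl) against Dot1l(fl/+), 6 were positive and 28 negative (median -0.085), with 4 lower and none higher (2.87% and 3.60% of all genes tested). For Dot1l(fl/fl) against Dot1l(+/+), 14 were positive and 20 negative (median -0.0074), with 1 higher and none lower (2.21% and 1.72% of all genes tested). Qdpr, which regenerates tetrahydrobiopterin, had 260.0 to 307 CPM in Dot1l(+/+) and 299 to 341 CPM in Dot1l(fl/+) (unadjusted p = 0.0241, adjusted p = 0.541), and Car2, a carbonic anhydrase, overlapped. Enpp2 (autotaxin), named after its values were seen, had 736 CPM in Dot1l(fl/+) replicate 3 and 396 to 542 CPM elsewhere, and choroid plexus expresses it as well.

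The 12 other precursor genes had 4 positive and 8 negative log2 fold changes for Dot1l(fl/+) against Dot1l(+/+), with a median of -0.060 and none under an unadjusted p of 0.05. Ptprz1, a receptor phosphatase of precursors that astrocytes share, had 424, 434 and 415 CPM in Dot1l(+/+), 432, 378 and 388 CPM in Dot1l(fl/+) and 431, 433 and 427 CPM in Dot1l(fl/fl). Lhfpl3 had 76.6 to 80.0, 68.0 to 77.5 and 72.1 to 83.5 CPM in the same order of genotypes, and Cacng4 had 35.9 to 40.1, 34.1 to 42.7 and 33.5 to 40.8 CPM. For Dot1l(fl/fl) against Dot1l(+/+), 5 were positive and 7 negative (median -0.035). Sox6 and Pcdh15 were lower there at an unadjusted p of 0.05, with an adjusted p of 0.999, where 1.72% of all genes tested were lower. For Dot1l(fl/fl) against Dot1l(fl/+), 6 were positive and 6 negative (median 0.00051), and Sox6 was lower at that p (2.87% of all genes tested). Both precursor members were positive in that comparison (median 0.084). The 12 other newly formed genes were split 6 and 6 in both comparisons with Dot1l(+/+), with medians of 0.0034 and -0.0019. They thus differed from the 3 newly formed members, which were all higher in Dot1l(fl/+) than in Dot1l(+/+) (median 0.15). For Dot1l(fl/fl) against Dot1l(fl/+), 5 of the 12 were positive and 7 negative (median -0.017). Sirt2 (a deacetylase), Fyn (the kinase that relays axonal contact) and Sox8 had means within 0.10 of each other on the log2 scale in each comparison, and none of the 3 had an adjusted p below 0.68. Fyn and Sirt2 lay wholly above the controls in Dot1l(fl/+), as did 6.84% of all genes tested. The nearest Dot1l(fl/+) and control libraries had 107.6 and 107 CPM for Fyn and 145.8 and 144.1 CPM for Sirt2. Sox8 lay wholly below the controls in Dot1l(fl/+), where 6.47% of all genes tested did so. It was also wholly below them in Dot1l(fl/fl), where that share was 5.25%, with 56.5 CPM in the nearest library against 57.0 CPM in the lowest control.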

How the data were processed

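RNA of dissected midbrain from mice of 180 days was sequenced in 9 libraries, 3 per Dot1l genotype and each a pool of 3 mice. The authors prepared directional libraries (NEBNext Ultra), sequenced them on an Illumina NextSeq and mapped the reads to GRCm38.p4, and they deposited raw counts per Ensembl gene for each library. The submitters' processing notes name bcl2fastq 2.17, Trimmomatic 0.30 and DESeq2 1.10.1; the aligner, the counter and the annotation release are not given in the sources used here. The deposited comparisons of the genotypes hold the authors' mean signal (normalized counts), log2 fold change with its standard error, Wald score, p-value and adjusted p-value, and were not used.

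Identifiers were matched to GENCODE M21 (GRCm38), which holds 47310 of the 47729 and 99.9% of counts, and gene coordinates are from that annotation. Counts were tested with edgeR 4.0.16 (R 4.3.3, limma 3.58.1) by the quasi-likelihood test in 1 fit of the 9 libraries with genotype as the factor, TMM factors (0.988 to 1.01) and filterByExpr, which kept 17671 genes, with Benjamini-Hochberg adjustment over these. CPM used the TMM library sizes, and levels per kilobase used the merged exons of a gene. A chi-square of the counts of 2 replicates was 4.34 to 16.3 times its degrees of freedom, so no library was a repeat of another, and edgeR put the biological variation at 8.81% (coefficient of variation). The script was tested on simulated counts. Alternatives were DESeq2 1.42.0, DESeq2 size factors, TMM without lineage and mitochondrial genes, no filter, 10 counts in every library, a fit of 2 genotypes, an offset for length and GC content, the replicate number as a block, and each library left out.

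The members, the gene lists and the tests were chosen with earlier results of these data known. All 30 members are named; of each further lineage list, the 3 genes with the highest level per kilobase are named, except for results that are not reported here, and any other gene was chosen after its values were seen. Tables were read with Python 3.11.15, pandas 2.3.3 and numpy 2.4.6, and figures were drawn with matplotlib 3.10.9. Promoter sequence came from RefSeq (GRCm38.p6).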

Additional observations from a re-analysis of the deposited data

How the results depend on the processing

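No alternative turned the sign of a member that had an unadjusted p under 0.05. The count of members past an adjusted p of 0.05 was 1 without the filter on low counts for Dot1l(fl/+) against Dot1l(+/+) and likewise 1 for Dot1l(fl/fl) against Dot1l(fl/+), Cldn11 in both, and 0 in every other alternative run. With the replicate number as a block it was 0 in all 3 comparisons, and members under an unadjusted p of 0.05 numbered 6, 0 and 9 with the block against 5, 0 and 8 without. Of all 17671 genes tested, 842 higher and 809 lower, 435 and 347, and 696 and 563 had such a p with the block, against 760 and 723, 390 and 304, and 637 and 508 without. The study's methods state that genotypes were paired by nest when tissue was pooled, but neither they nor the labels say that equal replicate numbers mark such a pair. Of 9 same-numbered pairs, 6 correlated above 0.1 (range 0.0222 to 0.317), and 7 of 9 libraries correlated best with one of their own number, a hint that the numbers may pair them; the block changed no call of a member after adjustment.

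Leaving out 1 library at a time gave 3 to 8 members under an unadjusted p of 0.05 for Dot1l(fl/+) against Dot1l(+/+), 0 to 2 for Dot1l(fl/fl) against Dot1l(+/+) and 3 to 11 for Dot1l(fl/fl) against Dot1l(fl/+). Over all genes tested, 519 to 1123 were higher and 431 to 1112 lower in the first comparison, 188 to 577 and 194 to 431 in the second, and 441 to 990 and 341 to 773 in the third. The 11 members, all lower, came without Dot1l(fl/+) replicate 1, where 903 of 17884 genes were higher and 773 lower, against 637 and 508 of 17671 with all libraries. Over the same fits the median log2 fold change for Dot1l(fl/+) against Dot1l(+/+) ran from -0.16 to -0.060 in the precursor genes, from 0.051 to 0.19 in the newly formed genes and from 0.048 to 0.13 in the mature genes. For Dot1l(fl/fl) against Dot1l(fl/+) it ran from 0.040 to 0.13 in the precursor genes, from -0.15 to -0.019 in the transcription factors and from -0.12 to -0.048 in the mature genes, in the first 2 cases with Dot1l(fl/+) replicate 3 left out at the end farthest from the value with all libraries. The cause of these moves was not tested. The fewest counts of a member were 119, for Nkx2-2 in the shallowest library; how much of each interval comes from counting was not computed.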
